A study of Mus musculus with 3 samples.

Results

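The villin and gelsolin family holds actin-binding proteins built from gelsolin repeats, and 7 of its genes (Avil, Vil1, Gsn, Capg, Flii, Svil and Scin) were followed here in RNA recovered with an antibody to ezrin. They were chosen by symbol, with the high ratio of Avil in these libraries already known, so every ratio of ezrin to IgG below describes the members and tests nothing. All 7 symbols are among the 41743 rows of the count tables. The measurement was RIP-seq, in which an antibody pulls a protein down with its RNA and the RNA is sequenced. The cells were K7M2, a mouse osteosarcoma line, in a derivative called COL3A. Ezrin had been knocked out in it with CRISPR/Cas9, and a vector with T567A mutant ezrin cDNA was stably transfected, so all 3 libraries share the genotype Ezrin -/- with Ezrin T567A and no treatment. There are 2 libraries precipitated with antibody to ezrin (replicates 1 and 2) and 1 with normal mouse IgG, which serves as background. Whether separate cultures gave the ezrin libraries, and whether the line is 1 clone, is not in the labels. The spread between them may therefore be technical. The study asked which RNAs the closed form of ezrin binds.

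Proteins with gelsolin repeats control the length and the bundling of actin filaments. Gelsolin and its nearest relatives cut filaments when calcium rises and then stay on the fast-growing end as a cap, from which the membrane lipid PIP2 releases them. Villin and its relatives carry a further headpiece at the end of the protein, which lets villin bundle filaments as well. Ezrin works at the same place, since it ties actin filaments to the plasma membrane, and phosphorylation at the residue exchanged in T567A opens it. Replacing that residue with alanine keeps it closed.

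The 3 libraries held 10124580 to 19676595 counts assigned to genes. Genes matched by symbol to RefSeq as protein-coding made up 97.0% and 97.5% of the counts in ezrin replicates 1 and 2 and 74.1% in IgG. The 11 osteoblast markers listed summed to 4538, 3708 and 2225 CPM in ezrin replicates 1 and 2 and IgG, and 7 were abundant enough to test, of which edgeR called 3 higher and 3 lower, where 19.0% of all tested genes were called higher and 17.4% lower. CPM are counts per 1000000 counts after TMM scaling, which corrects library sizes for composition. Those higher were Col1a2, Spp1 and Sparc and those lower Runx2, Alpl and Phex, whereas the late markers Ibsp and Bglap had 0 counts and 1 count over the 3 libraries, and Sp7, which drives osteoblast fate, had 1. No library of unprecipitated RNA was analysed here, so the level of a message in the cells and its recovery by the antibody cannot be told apart. In bulk samples, fewer cells of a type and less RNA per cell cannot be told apart either.

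The stretches of 100 bases just upstream of annotated start sites are printed here because they show how unlike the members' genes are at their starts. They also show that gelsolin has several starts, which counts per gene cannot separate. They come from RefSeq windows of GRCm38.p6 (250 bases before to 50 after the start), which matched 6 of the 7 members. Capitals mark a motif that lies wholly inside the printed bases, on either strand, and none of the marked motifs overlap.
Avil (chr10:127000609-127000708, + strand): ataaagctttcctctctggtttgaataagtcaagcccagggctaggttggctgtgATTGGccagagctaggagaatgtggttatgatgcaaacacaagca
Scin (chr12:40134229-40134328, - strand): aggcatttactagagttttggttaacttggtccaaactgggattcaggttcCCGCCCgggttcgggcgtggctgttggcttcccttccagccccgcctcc
Gsn start 1 (chr2:35256259-35256358, + strand): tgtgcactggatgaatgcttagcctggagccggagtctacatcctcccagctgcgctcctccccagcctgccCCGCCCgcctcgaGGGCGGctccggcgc
Gsn start 2 (chr2:35266644-35266743, + strand): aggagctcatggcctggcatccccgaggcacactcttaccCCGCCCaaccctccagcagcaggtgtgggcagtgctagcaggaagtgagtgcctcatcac
Gsn start 3 (chr2:35282280-35282379, + strand): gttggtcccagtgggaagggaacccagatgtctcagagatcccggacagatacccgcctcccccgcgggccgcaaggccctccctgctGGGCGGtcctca
Capg (chr6:72549547-72549646, + strand): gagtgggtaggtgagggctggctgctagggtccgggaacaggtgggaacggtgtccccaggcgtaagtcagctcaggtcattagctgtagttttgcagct
Flii (chr11:60727264-60727363, - strand): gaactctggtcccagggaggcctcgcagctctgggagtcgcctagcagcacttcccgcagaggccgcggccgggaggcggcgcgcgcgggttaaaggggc
Vil1 (chr1:74409284-74409383, + strand): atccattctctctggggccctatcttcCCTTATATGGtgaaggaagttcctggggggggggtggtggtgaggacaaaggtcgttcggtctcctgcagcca
The motifs searched on both strands were the GC box (GGGCGG), the TATA box (TATAAA), the CCAAT box (CCAAT), the AP-1 site (TGANTCA), the E-box (CACGTG) and the CArG box. No TATA box, AP-1 site or E-box was found in the full windows of the members. The capitals in Avil are a CCAAT box, a motif held by 37.4% of all 32817 RefSeq windows. Those in the 3 Gsn windows and in Scin are GC boxes, held by 35.6%. Those in Vil1 are a CArG box, the motif bound by serum response factor, which controls many actin genes, and 1.63% of windows hold one. These percentages are over full windows, which hold further motifs not wholly inside the printed bases. Among them are GC boxes in Flii and Vil1 and CCAAT boxes at Gsn starts 2 and 3. The Avil window had the lowest GC content of the members, 43.0%, at percentile 17.4 of all windows, with 2 CpG dinucleotides. The Flii window had the highest, 70.0%, at percentile 90.9, with 26 CpG dinucleotides. The Gsn windows held 20, 2 and 16 CpG in the order printed. These are descriptions of letters in a window and say nothing about which start was used in these cells. The start sites printed for Avil and Capg, 127000709 and 72549647, lie inside their annotated gene spans. Those spans begin at 127000065 and 72538282, and no window from there is printed.

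Counts of the 7 genes summed to 24960, 16032 and 3614 in ezrin replicate 1, ezrin replicate 2 and IgG. That was 0.127% (95% exact Clopper-Pearson interval 0.125 to 0.128), 0.0990% (0.0975 to 0.101) and 0.0357% (0.0345 to 0.0369) of each library. As a share of the counts of genes matched as protein-coding, the family took 0.131%, 0.101% and 0.0482%. The family therefore held a larger share of both ezrin libraries than of the IgG library on either base, and replicate 1 was the higher of the ezrin pair. Intervals of shares and counts cover counting error only.

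Every one of the 7 messages had a higher CPM in both ezrin libraries than in IgG, as did 42.6% of the 12478 genes that edgeR tested. The low-count filter kept 6 members, and Vil1 was too rare. Scin passed that filter through the ezrin libraries alone. In edgeR's quasi-likelihood test, adjusted over all tested genes by Benjamini-Hochberg, Gsn, Capg, Flii, Avil and Scin were past the threshold of 0.05 on the higher side, 5 of the 6 tested, and Svil was not. Of all tested genes 19.0% were past it on the higher side and 17.4% on the lower side, 36.4% in all. The median log2 fold was 1.70 over the 6 tested members and −0.02 over all tested genes. Since the members were chosen from this contrast, and one of them passed the filter only where it is high, nothing is read from that count or median.

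**Figure D1:**
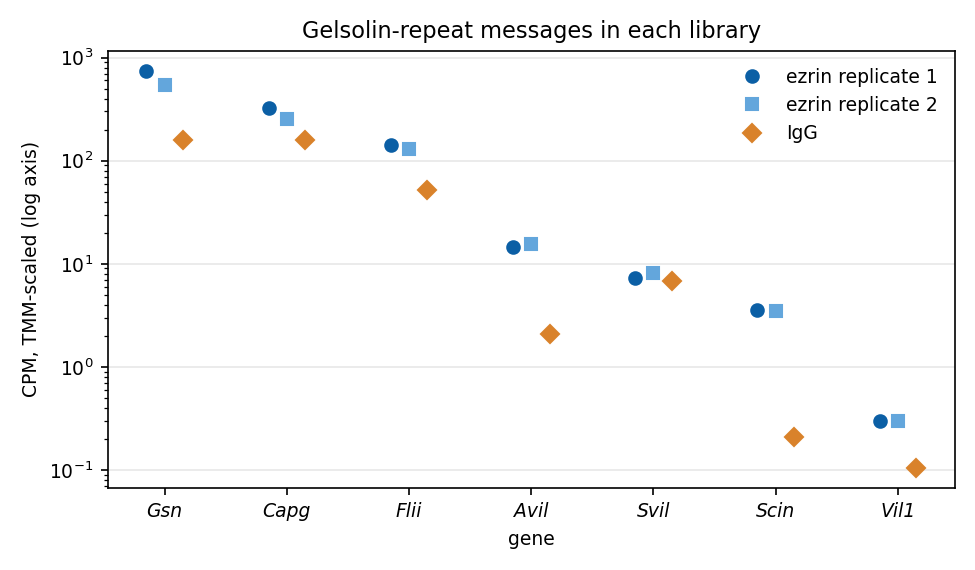
CPM of each member in each library on a log axis, with ezrin replicates 1 and 2 as blue circles and squares and IgG as orange diamonds, genes in order of level. Both ezrin points lie above the IgG point for every gene, by a wide margin for Scin (3.54 and 3.46 against 0.209 CPM) and by a narrow one for Svil (7.33 and 8.23 against 6.79 CPM).

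Gelsolin and scinderin are calcium-activated severing proteins. Gsn (chromosome 2, 35256359 to 35307902, GRCm38.p6), whose product exists as a form inside cells and a secreted form, was the most abundant member in the ezrin libraries. It had 15000, 9145 and 1516 counts, or 748, 545 and 158 CPM in ezrin replicate 1, ezrin replicate 2 and IgG. Both ezrin libraries were well above IgG, and replicate 1 was the higher. The ezrin mean was 646 ± 143 CPM (SD, n = 2), and the fitted fold was 4.08 (log2 fold 2.03, SE 0.24). The SE rests on the spread between the ezrin libraries, pooled over genes, and takes IgG to vary alike. In the order of log2 folds of all tested genes, from the highest, Gsn stood at place 162. The noncoding gene Gm39795, inside the span of Gsn, is not used here, and the next gene, Stom, a membrane protein gene, had a log2 fold of −0.09 (SE 0.26).

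Scin (chromosome 12, 40059769 to 40134228), which encodes scinderin, also called adseverin, a severing protein known from secretory cells, had the highest fold of the tested members on the fewest reads. It had 71 and 58 counts in the ezrin libraries and 2 in IgG, or 3.54, 3.46 and 0.209 CPM. The exact Poisson intervals of these counts, not scaled for depth, were 55.5 to 89.6, 44.0 to 75.0 and 0.242 to 7.22. They cover counting error only, and the IgG value, from 1 library, is poorly known. The ratio of pooled ezrin counts to IgG, scaled to CPM, was 16.8, with a counting interval of 4.54 to 140. The fitted log2 fold was 4.01 (SE 0.82), and 66 of the 12478 tested genes (0.529%), Scin included, had a log2 fold at least as high. Neither gene next to Scin had more than 3 counts in any library. Those neighbours are the noncoding gene Arl4aos and Lsmem1.

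Capping protein CapG, the product of Capg (chromosome 6, 72538282 to 72562983), caps filament ends without cutting them and was first known from macrophages. Capg had 6580, 4257 and 1509 counts, or 328, 254 and 158 CPM in ezrin replicates 1 and 2 and IgG. The ezrin libraries were above IgG and further from each other than for most genes. The ezrin mean was 291 ± 52.4 CPM (SD, n = 2), and the fitted fold was 1.84 (log2 fold 0.88, SE 0.24), the lowest of the 5 that passed the threshold. Of 12 macrophage markers 9 stayed under 10 counts in all libraries, and Adgre1, Ptprc and Tyrobp had 0 everywhere. The list summed to 993, 902 and 1258 CPM, nearly all of it Csf1r at 917 ± 66.4 CPM against 1234 CPM. The 3 tested markers were not past the edgeR threshold, with log2 folds of −0.43 for Csf1r, 0.37 for Cd14 and 0.78 for Mrc1 (edgeR adjusted p = 0.0945, 0.281 and 0.392) and a median of 0.37. Their part in the value of Capg was not tested. Next to Capg, Elmod3 had a log2 fold of 0.37 (SE 0.54) and Sh2d6 had 2, 5 and 5 counts.

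Flii (chromosome 11, 60714143 to 60727263) encodes flightless I, which joins gelsolin repeats to leucine-rich repeats and also acts as a coactivator in the nucleus. It had 2866, 2170 and 501 counts, or 143, 129 and 52.4 CPM in ezrin replicates 1 and 2 and IgG. The ezrin libraries were close to each other and clear of IgG. The ezrin mean was 136 ± 9.51 CPM (SD, n = 2), with a fitted fold of 2.60 (log2 fold 1.38, SE 0.26). Flii overlaps the polarity gene Llgl1 by 44 bases, and the sources used here do not give the use of strand in counting. Llgl1 had 1352, 701 and 412 counts and a log2 fold of 0.34 (SE 0.25), below that of Flii. The next gene, Mief2, which acts in mitochondrial fission, was at −0.16 (SE 0.31).

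Advillin, villin and supervillin carry the headpiece. Avil (chromosome 10, 127000065 to 127020994), which encodes advillin, a protein known from sensory neurons and from tuft cells, had 290, 259 and 20 counts. These gave 14.5, 15.4 and 2.09 CPM in ezrin replicate 1, ezrin replicate 2 and IgG. The ezrin libraries differed little and the IgG count was low, with an exact Poisson interval of 12.2 to 30.9. The ezrin mean was 14.9 ± 0.700 CPM (SD, n = 2), and the fitted fold was 7.12 (log2 fold 2.83, SE 0.39). From pooled counts the ratio was 7.13, with a counting interval of 4.57 to 11.8. This is the value that led to the choice of the family.

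The gene upstream of Avil, the phosphatase gene Ctdsp2, lies on the same strand and ends 89 bases before Avil begins. Ctdsp2 was far more abundant and differed in the opposite direction, with 4257, 3365 and 3692 counts and a log2 fold of −0.90 (SE 0.22). Tsfm, a mitochondrial elongation factor gene on the opposite strand, starts its annotated span 1337 bases beyond the end of Avil. It had 1720, 1204 and 368 counts and a log2 fold of 1.03 (SE 0.26). Whether reads from a neighbour were counted to Avil was not tested. Of 20 sensory neuron markers 17 had under 10 counts in every library, and Isl1, Pou4f1 and Calca had none. The list summed to 73.7, 64.9 and 179 CPM, nearly all from Runx1 and Runx3, which many other cells express. Both were lower in ezrin (log2 folds −1.33 and −1.50, edgeR adjusted p = 2.6e-07 and 3.88e-08). The other 2 tested markers, on few counts, went opposite ways and were not past the threshold. Nefl was at −1.61 and P2rx3 at 1.13 (edgeR adjusted p = 0.236 and 0.454). Of 9 tuft cell markers 6 had under 10 counts in every library, and Pou2f3, the factor that defines these cells, had 0. That list summed to 66.3, 77.0 and 90.5 CPM, of which the kinase Dclk1 gave most. Its 3 tested genes were not past the threshold. Their log2 folds were −0.37 for Dclk1, −0.24 for Ptgs1 and 0.97 for Alox5ap (edgeR adjusted p = 0.227, 0.561 and 0.338).

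Svil (chromosome 18), which encodes supervillin, a large protein that links membranes, actin and nonmuscle myosin, had 147, 138 and 65 counts, or 7.33, 8.23 and 6.79 CPM in ezrin replicates 1 and 2 and IgG. These values lay close together. The ezrin mean was 7.78 ± 0.638 CPM (SD, n = 2), and the fitted log2 fold was 0.19 (SE 0.35), not past the threshold. The ratio of pooled counts was 1.14, with a counting interval of 0.867 to 1.51. Supervillin has a muscle form, and of 8 muscle markers 7 had under 10 counts in every library. Acta2, smooth muscle actin, was the exception, at 203, 129 and 48 counts.

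Vil1 (chromosome 1, 74409384 to 74435560) encodes villin, the bundling and severing protein of the intestinal brush border, and was close to absent. It had 6, 5 and 1 counts, or 0.299, 0.298 and 0.105 CPM in ezrin replicate 1, ezrin replicate 2 and IgG. The exact Poisson intervals were 2.20 to 13.1, 1.62 to 11.7 and 0.0253 to 5.57, which overlap, and the ratio of pooled counts, 2.86, had a counting interval of 0.415 to 123. A difference was not detectable at this depth. At one end, 51 bases of Vil1 overlap Usp37, a deubiquitinase gene with 656, 773 and 456 counts and a log2 fold of −0.28 (SE 0.25). Its other neighbours, Ctdsp1 and Cnot9, were at −0.66 (SE 0.22) and −0.70 (SE 0.24). Of 19 brush border and epithelial genes, Vil1 included, 16 had under 10 counts in every library, and Epcam, Cdx2, Fabp1 and Fabp2 had 0. The 3 that could be tested were Pls1, which encodes plastin 1 (log2 fold 0.80, edgeR adjusted p = 0.0397), Eps8l2 (0.84, edgeR adjusted p = 0.0108) and Myo1a (2.49, edgeR adjusted p = 0.184, on 13, 10 and 1 counts). The list summed to 38.0, 36.0 and 20.7 CPM, and its part in the Vil1 values was not tested. The remaining gelsolin-repeat gene, Vill, which encodes villin-like protein, had 2, 2 and 1 counts.

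**Figure D2:**
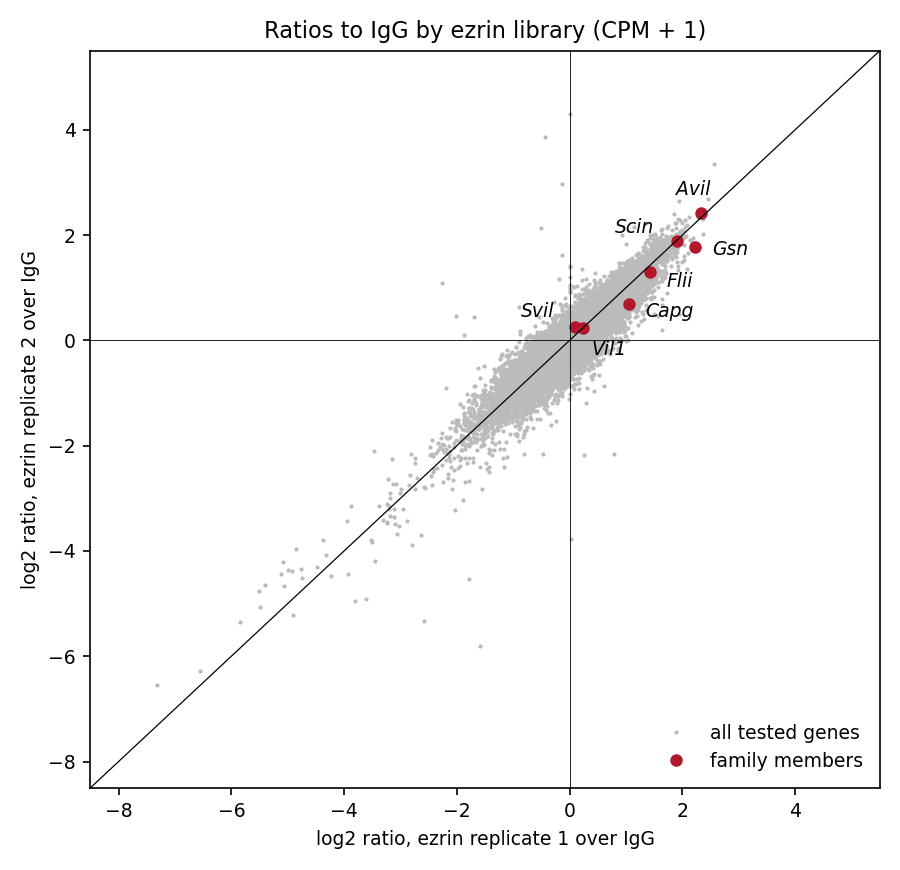
Log2 ratio to IgG in ezrin replicate 1 (x axis) and ezrin replicate 2 (y axis), with 1 CPM added to each value, for all tested genes (grey) and the 7 members (red), and the line of equality. Avil lies at 2.32 and 2.41 and Gsn at 2.23 and 1.78, while Svil (0.10 and 0.24) and Vil1 (0.23 and 0.23) lie near the origin. The added 1 CPM exceeds every CPM value of Vil1 and draws it there. Its ratio of pooled counts, 2.86, had a counting interval of 0.415 to 123.

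The ezrin libraries gave similar values for most members. On log2 of CPM + 1, replicate 1 minus replicate 2 was 0.45 for Gsn and 0.37 for Capg, the most abundant members. It was 0.14 for Flii, 0.03 for Scin, −0.09 for Avil and −0.15 for Svil. The median size of this difference was 0.145 over the 6 tested members and 0.199 over all tested genes, of which the 90th percentile was 0.482. Gsn and Capg thus varied more between the ezrin libraries than the typical gene, and the other 4 less. The fold of Gsn over IgG was larger than that gap, and the log2 fold of Capg in the library where it was lower was 0.69 against a fitted 0.88.

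Levels of different genes were compared per length, in the deposited RPKM (reads per gene length and per sequencing depth). In the ezrin libraries the order was Gsn, Capg, Flii, Avil, Scin, Svil and Vil1. Gsn was at 174 ± 35.3, Capg at 97.6 ± 15.8 and Flii at 22.9 ± 1.18 RPKM (SD, n = 2). Avil was at 3.74 ± 0.244, Scin at 0.991 ± 0.00223, Svil at 0.618 ± 0.0621 and Vil1 at 0.0715 ± 0.00117 RPKM. The values of neighbours in this order did not overlap between the ezrin libraries, with 2 values per gene and counting error left out. The small SDs of Scin (71 and 58 counts) and Vil1 (6 and 5 counts) do not cover counting error. In IgG the order was Capg (40.5 RPKM), Gsn (32.6), Flii (6.74), Svil (0.412), Avil (0.399), Scin (0.0452) and Vil1 (0.0191), from 1 library, and Svil and Avil were next to each other.

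Per length, Gsn was above Capg in both ezrin libraries and below it in IgG. By counts alone they were level in IgG, at 1516 and 1509 counts, or 41.9% and 41.8% of the family's counts, so their order there rests on the length used for each gene. Capg stood at 0.548 and 0.581 of the RPKM of Gsn in ezrin replicates 1 and 2 and at 1.24 of it in IgG. Gsn took 59.0%, 56.6% and 40.4% of the family's summed RPKM in ezrin replicate 1, ezrin replicate 2 and IgG, and Capg took 32.3%, 32.9% and 50.2%. Flii had a share of 7.07%, 8.41% and 8.36%. The 4 rarer genes together made up the rest, of which Avil had 1.06%, 1.49% and 0.495%. Because these shares are set within each library, no scaling between libraries enters them.

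**Figure D3:**
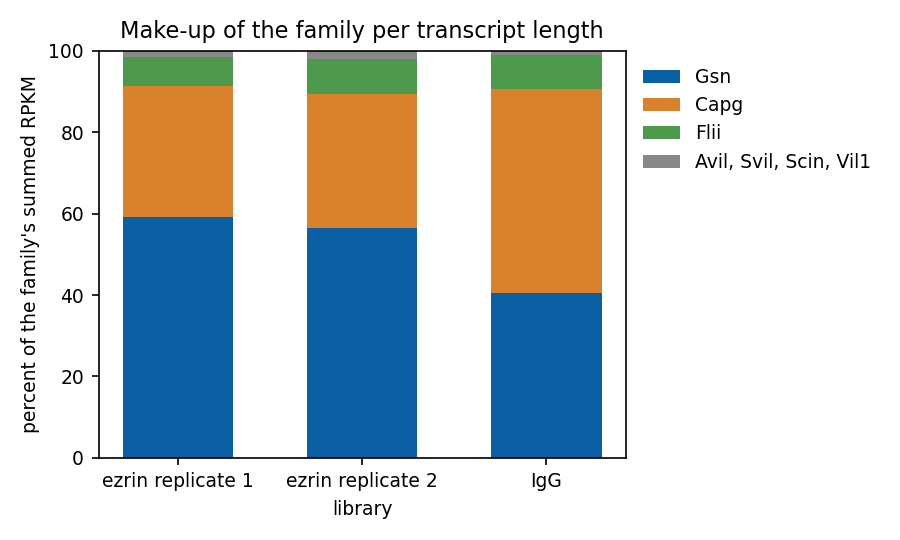
Stacked bars of each library's family RPKM, in percent of the sum over the 7 genes, for Gsn, Capg, Flii and the 4 rarer genes together. Gsn is the larger part of both ezrin libraries (59.0% and 56.6%) and Capg of the IgG library (50.2%).

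Over all genes the folds varied with level and, less, with length, so the tested genes were cut into 10 equal bands by each, and a member was set beside genes that share both of its bands. The median log2 fold of tested genes ran from −0.81 in the lowest band of mean CPM to 0.38 in the highest, and was −0.26 in the band of the longest genes. For the abundant members the surroundings were themselves higher. In the bands of Gsn the median of 111 genes was 0.48 against 2.03 for Gsn, and in those of Capg the median of 120 genes was 0.58 against 0.88 for Capg. There 47.7% and 50.8% of genes were past the edgeR threshold on the higher side. For Flii the median of 132 genes was 0.32 against 1.38. For the rarer members it was near 0 or below. It was 0.0042 over 145 genes for Avil (2.83), −0.30 over 125 genes for Scin (4.01) and −0.38 over 84 genes for Svil (0.19), whose length, recovered as count over RPKM, was 10701 bases. The fold of Capg therefore lay nearer to its surroundings than that of any other member that passed the threshold.

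**Figure D4:**
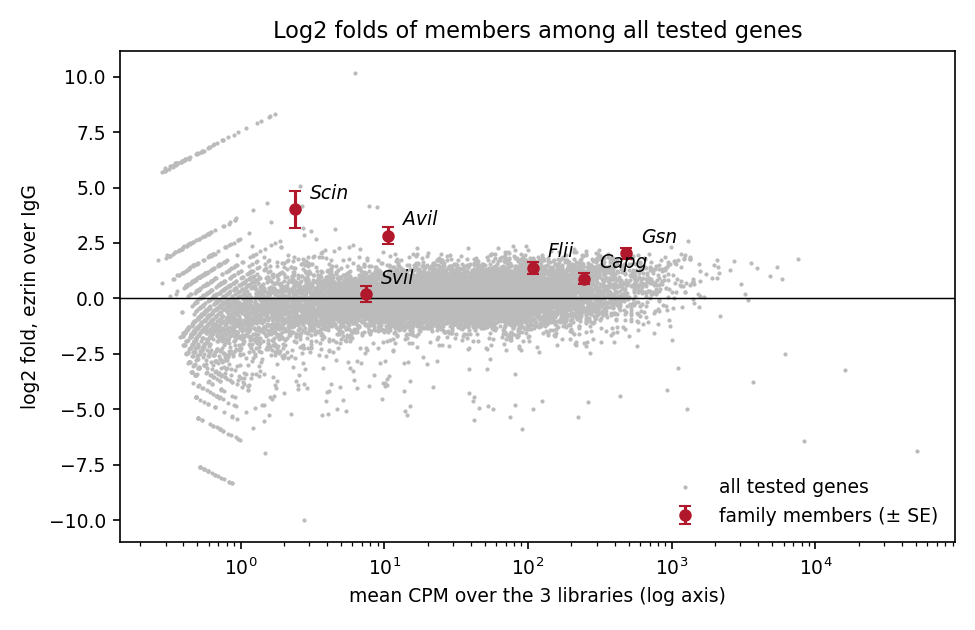
Log2 fold of ezrin over IgG (y axis) against mean CPM over the 3 libraries (log x axis) for all tested genes in grey and the 6 tested members in red with SE bars. Scin (4.01) and Avil (2.83) lie above the median log2 folds of their bands of mean CPM, −0.38 and −0.05. Some genes of like level lie higher than Scin, such as Eno4 (8.20). Capg (0.88) lies within the upper part of the cloud.

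Other genes resembled some members more than others. Likeness was the distance between the genes' pairs of log2 ratios to IgG (CPM + 1, over the 3 libraries), among tested genes within 2-fold of the member's mean CPM. Avil had no gene within a distance of 0.25 among 2757, and the nearest were Eml2 (0.45), a microtubule-binding protein gene, Zfp143 (0.68) and Tnnc1 (0.75). Gsn had 1 such gene among 707, and its nearest were Usp5 (0.21), Mcm3 (0.26) and Aldh2 (0.27). Scin had 2 among 1497, with Nme3 (0.13), Gm27029 (0.20) and Eno4 (0.26) nearest. By contrast, 105 of 3086 genes lay that close to Flii, led by Trap1 (0.02), Akr1b3 (0.02) and Ube2o (0.03). For Capg it was 77 of 1558, led by Sfpq, Hgs and Uqcrc1 (0.06 each). For Svil it was 230 of 2249, led by Tmem126b (0.01), Rttn and Cdkn2d (0.02 each). For Vil1, at the edge of detection, the nearest of 166 genes were Rgs16 (0.10), Isoc2b (0.15) and Acot6 (0.17). At the low CPM of Scin and Vil1 the added 1 CPM weighs on these distances. The distances use the same ratios to IgG that led to the choice of the family through Avil. A gene with a large ratio has few others near it, so nothing particular to a member is read from these counts. The fitted log2 folds of Nme3, Gm27029 and Eno4 were 3.06, 3.19 and 8.20, against 4.01 for Scin. Eno4 had 0 counts in IgG, so the size of its fold is poorly known.

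The other genes that cut, cap, recycle or sequester actin went both ways. Of 44 listed filament turnover genes 35 were tested, of which 6 were higher, 5 lower and 24 not past the threshold by edgeR, with a median log2 fold of 0.04. The higher share, 17.1%, was close to the 19.0% of all tested genes. Of the 35 tested, 19 lay in the top 3 of the 10 bands of mean CPM. In those bands 33.5% of 3744 genes were higher and 15.9% lower. Nothing particular to the turnover list is read from its count. With library size as the only scaling 10 turnover genes were higher and 4 lower (28.6% and 11.4%). Under that scaling 23.0% and 14.1% of all tested genes were. With limma on RPKM 12 were higher and 2 lower (34.3% and 5.71%), beside 29.9% and 7.73% of all tested genes. The higher genes were Cap1, which recycles actin monomers (370 ± 7.19 against 167 CPM, log2 fold 1.14, edgeR adjusted p = 2.05e-05), Cttn, cortactin (0.98, edgeR adjusted p = 2.06e-04), and the monomer and end binder Twf2 (0.92). The cofilin phosphatase Ssh3 (0.82), the cofilin partner Wdr1 (0.68) and the pointed-end cap Tmod3 (0.67) were the others. The lower genes were Mtpn, an inhibitor of capping protein (122 ± 14.4 against 342 CPM, −1.49, edgeR adjusted p = 1.51e-09), the monomer binder Tmsb10 (−1.12), the cofilin kinases Tesk1 (−0.76) and Limk1 (−0.73), and the adaptor Cd2ap (−0.70). The most abundant of the list, cofilin Cfl1 (1604 ± 182 against 1390 CPM, 0.21) and profilin Pfn1 (1348 ± 0.713 against 1555 CPM, −0.21), were not past it (edgeR adjusted p = 0.461 and 0.458).

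Every fold of the turnover genes that passed the threshold was smaller in size than those of Gsn, Scin and Avil. The family was chosen with the ratio of Avil known, and Scin passed the filter only where it is high. Nothing is therefore read from this order. The heterodimeric capping protein, which caps the same filament end as CapG, was at −0.37, −0.49 and 0.47 for Capza1, Capza2 and Capzb, none of them past it (edgeR adjusted p = 0.224, 0.0874 and 0.105). Coro1a (2.70) and Tmod4 (2.34) had larger log2 folds than Gsn on 19, 8 and 1 and on 14, 7 and 1 counts, and did not pass (edgeR adjusted p = 0.129 and 0.225).

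**Figure D5:**
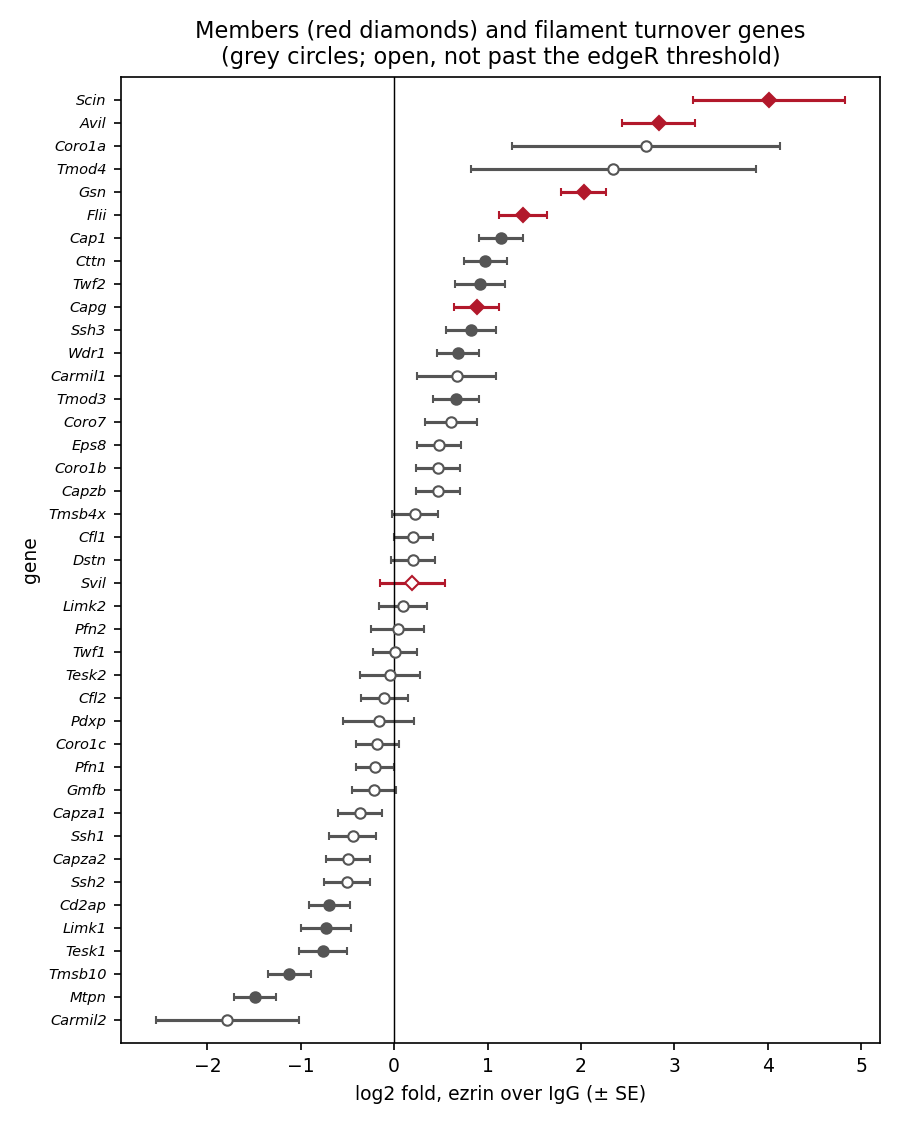
Log2 folds (± SE) of the 6 tested members (red diamonds) and the 35 tested filament turnover genes (grey circles), sorted, with open symbols for genes not past the edgeR threshold. Scin (4.01) and Avil (2.83) are at the top, Svil (0.19) is in the middle, and the turnover genes run from −1.78 (Carmil2) to 2.70 (Coro1a).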

How the data were processed

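The authors deposited 1 table of raw counts and 1 of RPKM for each of the libraries, per the file headers. GRCm38 was the build in the submitters' processing notes. Strand use, annotation, aligner, counter and the handling of multiply matching reads are steps not given in the sources used here. The labels name both ribosomal RNA depletion and polyA RNA.

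Counts of all genes were fitted with edgeR 4.0.16 in R 4.3.3 (filterByExpr, TMM, quasi-likelihood test, Benjamini-Hochberg at 0.05). Residual spread comes from the 2 ezrin libraries alone, pooled over genes, and IgG is assumed to vary like them. SE is the size of the log2 fold over the square root of F. CPM use TMM-scaled totals (factors 1.02, 1.04 and 0.946). Gene lengths were counts over RPKM, scaled on small RNA genes of known length. Positions and promoter windows come from RefSeq, GRCm38.p6, matched by symbol (30216 of 41743).

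The members and gene lists were chosen with earlier results of these data known. Named genes are the members, the 3 nearest in pattern and the neighbours of each, and the called and most abundant genes of each list. A list of headpiece proteins was dropped after its values were seen, since some of its genes lack that domain. Alternatives changed the ezrin libraries used, the length trend, the low-count filter, the scaling or the tool (DESeq2 1.42.0, and limma 3.58.1 on log2 of RPKM + 1).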

Additional observations from a re-analysis of the deposited data

How the results depend on the processing

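Every setting that could test Gsn, Capg, Flii and Avil left them past the threshold on the higher side, as it did Scin except at a mean of at least 10 CPM, where Scin and Svil were not tested, and Svil passed in none. The log2 fold of Avil was 2.93 without a filter, 2.72 at a mean of at least 10 CPM, 2.95 with library size only and 1.76 with limma on log2 of RPKM + 1, where the added 1 shrinks rare genes. Scin was at 0.93 there. The median of the members was 1.39 after cyclic loess, 1.43 with RPKM, and 1.54 to 1.84 when either ezrin library was left out, which gave 2.78 to 2.88 for Avil. Leaving 1 out gives values with no test. The median of all genes was 0.10 with library size only and 0.22 with RPKM, against −0.02. Capg was lowest after cyclic loess (0.55, limma adjusted p = 0.0438), only just past the threshold. Svil was 0.11 without ezrin replicate 2 and 0.28 without replicate 1. Turnover genes called higher numbered 10 with library size only and 12 with RPKM, and those called lower 8 after cyclic loess, 3 with DESeq2 and 2 with RPKM, against 6 and 5. Over all genes DESeq2 called 1012 lower, library size only gave 2872 higher and 1761 lower, and limma with RPKM called 3734 higher and 964 lower, against 2377 and 2171 with edgeR. The cause of these moves was not tested. No paired analysis was possible because the ezrin and IgG groups share only replicate number 1. A single IgG library, with 2 counts for Scin and 20 for Avil, limits every ratio.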

Other observations

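Genes whose products bind or regulate members of the family were measured as well. Of 18 listed, 17 were tested, of which 7 were higher and 1 lower by edgeR, with a median log2 fold of 0.48. The higher share was 41.2%, and over all tested genes 19.0% were higher and 17.4% lower. Most of these genes are abundant: 14 of the 17 lay in the top 3 of the 10 bands of mean CPM, where 33.5% of 3744 genes were higher and 15.9% lower, with a median of 0.22. Nothing particular to the list is read from its count. Higher were the supervillin partner Myh9, a nonmuscle myosin (4879 ± 289 CPM, SD, n = 2, against 1911 CPM, log2 fold 1.35), and cytoplasmic actin Actg1 (2275 ± 228 against 1208 CPM, 0.91). The catenin gene Ctnnb1 (1.64), the mitotic genes Plk1 (1.01), Prc1 (0.88) and Anln (0.77), and Cttn, also among the turnover genes, were the others (edgeR adjusted p = 0.00576 for Anln, the weakest). The lower one was Pip5k1c, which makes PIP2 (88.7 ± 15.6 against 198 CPM, −1.16, edgeR adjusted p = 7.23e-06), and Pip5k1a, a kinase of the same kind, was at 0.22 (edgeR adjusted p = 0.488). The other cytoplasmic actin, Actb, was at 3352 ± 347 against 2931 CPM and did not pass (0.19, edgeR adjusted p = 0.466). The flightless partners Lrrfip1 (0.25) and Lrrfip2 (−0.41) did not pass either (edgeR adjusted p = 0.437 and 0.193). Gc, the plasma protein that clears actin together with secreted gelsolin, had 0 counts in each library.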
